A study of Mus musculus with 4 samples.

Results

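Igf1r, Igfbp5 and Igfbpl1 carried 12 of the 1828 clusters of RNA tags crosslinked to IMP2 in embryonic mouse brain, and all 12 lay in 3' UTRs. That place was common in the list, where 68 of 761 genes had any cluster in coding sequence, so it is not particular to these genes. These genes are every gene of the cluster list whose symbol is Igf1r or begins with Igfbp, 3 of the 761 genes listed. Igf1r encodes the type 1 receptor for insulin-like growth factors (IGFs), Igfbp5 a secreted IGF-binding protein and Igfbpl1 an IGF-binding protein-like protein. Since the genes had to be in the list to be chosen, their presence in it is no finding.

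IMP2 is the protein product of Igf2bp2, an RNA-binding protein of the family named for binding to the Igf2 transcript. Its RNA contacts were mapped by HITS-CLIP, in which ultraviolet light joins a protein to RNA and the fragments that come down with an antibody are sequenced. All 4 libraries came from Swiss Webster brain at embryonic day 14 (E14) with no genotype or treatment given; 2 titles carry R and 2 carry M, letters the labels leave unexplained. A single deposited list stands for all 4, with no column for any 1 library, so no value below has a replicate error, no library could be set against another, and the number of tags behind a cluster is unknown. No immunoprecipitation without IMP2 or input was analysed here.

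In the IGF system, the secreted ligands IGF1 and IGF2 bind the IGF1 receptor, a tyrosine kinase that signals through adaptor proteins to the PI3K-Akt-mTOR and Ras-MAP kinase pathways. IGF-binding proteins hold the ligands outside the cell and so limit or prolong their access to the receptor. In the developing brain the pathway is known for promoting the growth and survival of neural progenitors and neurons, and the IGF1 receptor also acts in the outgrowth of axons.

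Defining markers of brain cell types were listed in part. Of 3 neuronal markers, Dcx (34 clusters, highest 85) and Stmn2 (6 clusters, highest 85) were listed and Tubb3 was not. None of 3 neural progenitor markers (Sox2, Nes and Pax6) was listed. The choroid plexus marker Ttr was listed (highest 88), as were Col1a1 (20), Col3a1 (29) and Rgs5 (47) of 4 meningeal and vessel markers, of which Pecam1 was not. In whole brain the cell type in which a transcript was bound cannot be told apart, and it was not tested for the genes described here.

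Igf1r had the most clusters of the 3 genes, spread widely over a long 3' UTR. The interval deposited for its transcript NM_010513 spans 7266 bases on chromosome 7, from 75371288 to 75378553 on the plus strand (mm9). Counted from the stop codon, the first cluster (75371971 to 75372035) had a height of 19, where height is the authors' score, read here as the peak number of stacked tags. The second (75372480 to 75372553) reached 34 and the third (75372586 to 75372626) 38. The next pair, at 75372733 to 75372808 and 75372856 to 75372896, had heights of 21 and 28. These 5 clusters lay between bases 684 and 1609 of the 3' UTR, so most of the Igf1r clusters were in the part nearest the stop codon. The sixth (75374072 to 75374142) was the highest, at 47, and stood apart by 1175 bases. The seventh (75376954 to 75377021) had a height of 32, a further 2811 bases downstream. Heights within Igf1r thus ran from 19 to 47, a ratio of 2.47 between its highest and lowest cluster. Over the 342 listed genes with at least 2 clusters, the median of this ratio was 1.59 and the largest 5.33. A highest and a lowest have more values to be taken from in a gene with more clusters.

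Igfbp5 showed the opposite placement, with its tall clusters near the 3' end. The IGFBP5 protein binds IGFs and also the extracellular matrix. Its deposited 3' UTR interval (NM_010518) has 4312 bases, on chromosome 1 from 72904639 to 72908950, minus strand. The first 2368 bases after the stop codon held no cluster. The first cluster in transcript order (72906471 to 72906582) was the lowest, with a height of 23. The second (72905131 to 72905197) had a height of 33, the third (72904961 to 72905094) 59 and the fourth (72904828 to 72904896) 55. The last 3 lay within 370 bases, between 87.0% and 95.6% of the way along the 3' UTR, and the fourth ended 189 bases before its 3' end. The highest cluster of Igfbp5 was 2.57 times as tall as its lowest, beside a median of 1.59 over genes with at least 2 clusters. The third was also the widest cluster of the 3 genes, at 134 bases, against a median width of 53 bases over the whole list.

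Igfbpl1 had 1 cluster, and it was the highest of the 12. The gene's product shares the IGF-binding domain of the IGFBP family and is known from the developing forebrain. The cluster covered 106 bases on chromosome 4, from 45823909 to 45824014 on the minus strand, with a height of 63. It lay between bases 239 and 344 of a 3' UTR of 1874 bases (NM_018741, 45822379 to 45824252), and no cluster was listed in the 1530 bases that follow. Of the 419 listed genes with a single cluster (55.1% of genes), 3 had a taller one, namely the chaperone gene Hsp90aa1 (76), Tanc2 (64) and Vapa (64), and Cnn3 had one of equal height.

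**Figure D1:**
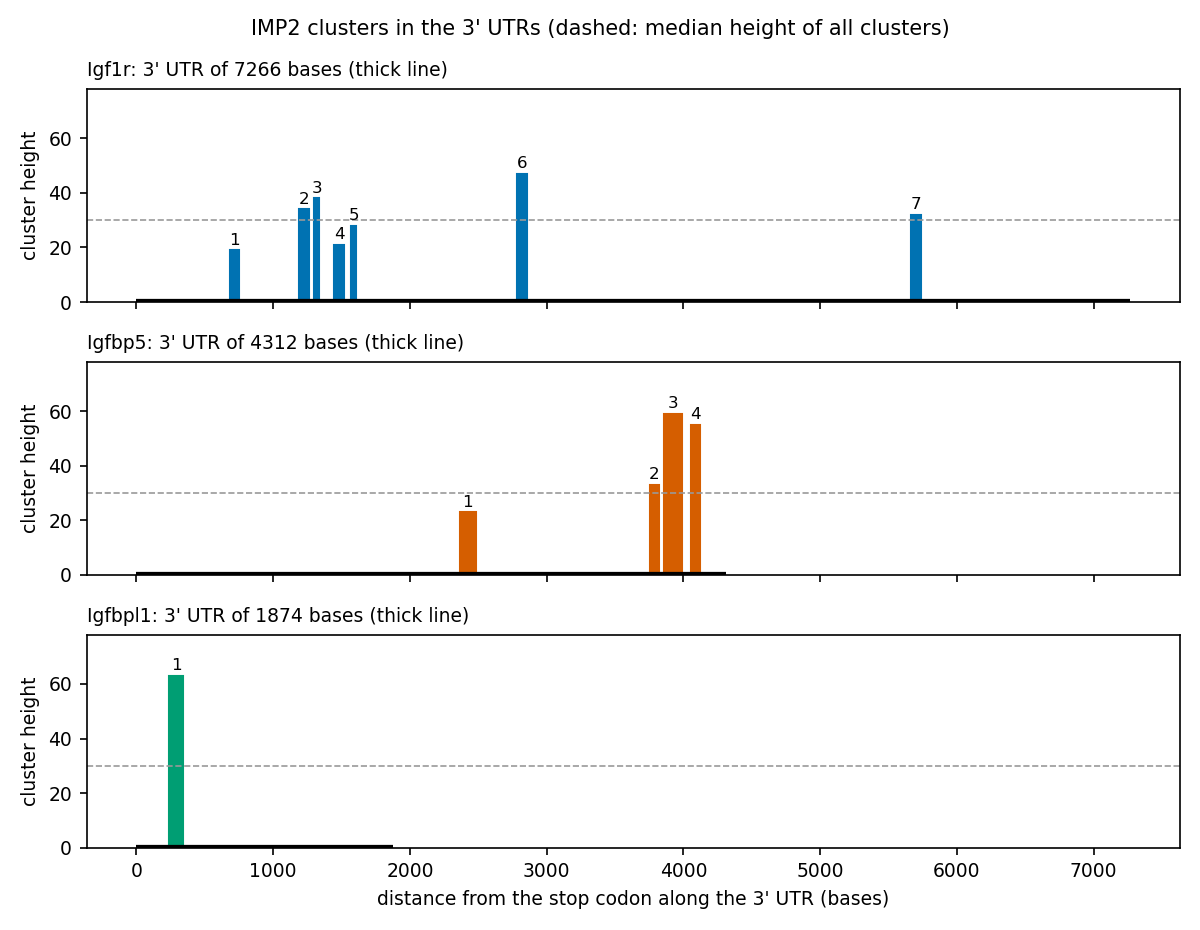
Clusters along the 3' UTRs of Igf1r, Igfbp5 and Igfbpl1. The x axis is the distance from the stop codon in bases, the y axis the cluster height, each bar is 1 cluster at its true width with its number in transcript order, and the dashed line is the median height of all 1828 clusters (30). Igf1r has 5 of its 7 clusters within its first 1609 bases, Igfbp5 has 3 of 4 from base 3754 on, and the single Igfbpl1 cluster starts at base 239.

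Close neighbours made up part of these counts. Clusters 2 to 5 of Igf1r were separated by 32, 106 and 47 bases and filled 232 of the 417 bases they spanned. Clusters 2 to 4 of Igfbp5 were separated by 36 and 64 bases and filled 270 of 370. Gaps of this size were common: of 1068 gaps between neighbouring clusters of a gene in the whole list, 50.8% were at most 150 bases, a limit set after the positions were seen. In Igf1r 3 of 6 gaps were that short, and in Igfbp5 2 of 3. Whether neighbouring clusters are separate contacts or 1 longer contact was not tested.

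The number of clusters has to be read against the length of the 3' UTR. With 7 clusters, Igf1r exceeded 715 of the 760 other listed genes, but its 3' UTR interval was the 21st longest of 729. Per kilobase of 3' UTR it had 0.963 clusters, against a median of 0.861 over listed genes with a 3' UTR interval. Igfbp5 had 0.928 and Igfbpl1 0.534 clusters per kilobase. Clusters covered 6.0% of the 3' UTR of Igf1r, 8.86% of that of Igfbp5 and 5.66% of that of Igfbpl1, against a median of 4.70%. The density and coverage of all 3 genes were therefore inside the middle of the list, between quartiles of 0.478 and 1.75 clusters per kilobase and of 2.16% and 10.6% covered. Of the 20 listed genes with a longer 3' UTR than Igf1r, 5 had more clusters and 15 fewer.

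**Figure D2:**
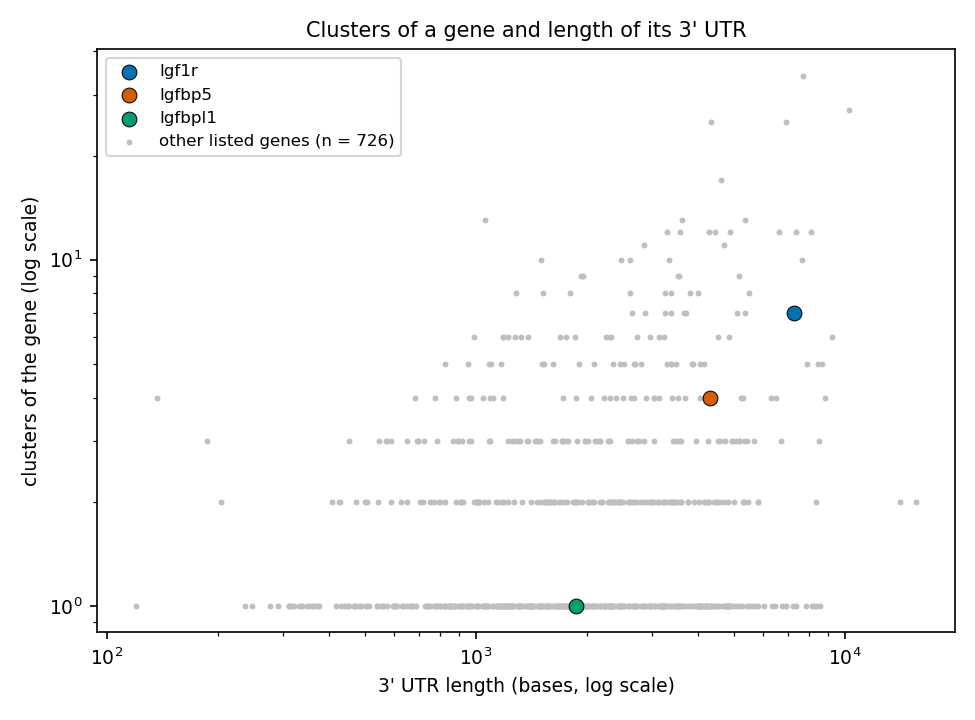
Number of clusters of each listed gene against the length of its 3' UTR in bases, both on log scales. Coloured points are Igf1r (7 clusters, 7266 bases), Igfbp5 (4 clusters, 4312 bases) and Igfbpl1 (1 cluster, 1874 bases), grey points the other 726 listed genes with a 3' UTR interval, and the coloured points lie within the grey cloud.

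By the height of its highest cluster, each of the 3 genes was in the upper part of the list. Igfbpl1 (63) was above 93.4% of the other listed genes, Igfbp5 (59) above 92.6% and Igf1r (47) above 83.4%, against a median of 31 over all 761. A maximum has more values to be taken from in Igf1r (7 clusters) and Igfbp5 (4) than in the 55.1% of listed genes with 1 cluster. By the median height of a gene's clusters Igf1r was above 66.3%, Igfbp5 above 92.4% and Igfbpl1 above 99.1%. For Igfbpl1 that median is its 1 cluster, ranked beside medians that take in the low clusters of other genes. As a cluster it was above 95.4% of the other clusters of the list. Single clusters varied more than these maxima. Cluster 1 of Igf1r was above only 2.13% of the other clusters of the list in height and cluster 4 above 8.65%, while clusters 3 and 4 of Igfbp5 were above 94.4% and 92.1%. Of the 12 clusters 8 were taller than the median of 30, and the 4 lower ones were clusters 1, 4 and 5 of Igf1r and cluster 1 of Igfbp5.

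The second deposited score gave another order. Its abbreviated heading is read here as a fold of the height, a ratio over a level that the header does not define. The median of this score over the list was 5.40. In Igf1r the folds in transcript order were 5.78, 7.91, 9.77, 9.08, 12.95, 14.8 and 8.21. In Igfbp5 they were 6.01, 10, 11.29 and 13.79, rising in step from the stop codon towards the 3' end, while height peaked at the third cluster. Igfbpl1 had a fold of 8.39. All 12 folds were above the list's median, and 10 were above its upper quartile of 7.08; the exceptions were the first clusters of Igf1r and Igfbp5. The highest fold of Igf1r was exceeded by 20 other genes and that of Igfbp5 by 27, but that of Igfbpl1 by 186. Like the highest cluster, the highest fold is a maximum, with more values to be taken from in a gene with more clusters.

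Folds of at least 10 were scarce in the list, with 110 clusters (6.02%) in 96 genes, and 5 of them belonged to the genes described here. Igfbp5 had 3, as did the progenitor cyclin gene Ccnd2 (of 17 clusters) and the gap junction gene Gja1 (of 3), and no other gene had as many. Igf1r was among the 11 genes with at least 2. The limit of 10 was chosen after the values were seen, and the counts are a description with no test. Cluster 2 of Igfbp5 had a fold of 10, exactly at the limit, so with any higher limit Igfbp5 would have fewer than 3. The median fold of a gene, over the 342 genes with at least 2 clusters, was 9.08 in Igf1r (above 93.3% of the others) and 10.6 in Igfbp5 (above 96.5%).

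If the fold is such a ratio, dividing height by fold gives the level that the fold implies. It was between 2.16 and 4.30 in Igf1r and between 3.30 and 5.23 in Igfbp5, against a median of 5.96 over the list, and 7.51 in Igfbpl1. In cluster 5 of Igf1r it was lower than in all but 18 other clusters, and in cluster 4 lower than in all but 23. Cluster 5 thus had the second highest fold of Igf1r at a height of only 28, below the median of the list. The level was not constant within a gene. What it measures is not stated in the header or the labels, and its relation to the abundance of the transcripts was not tested.

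**Figure D3:**
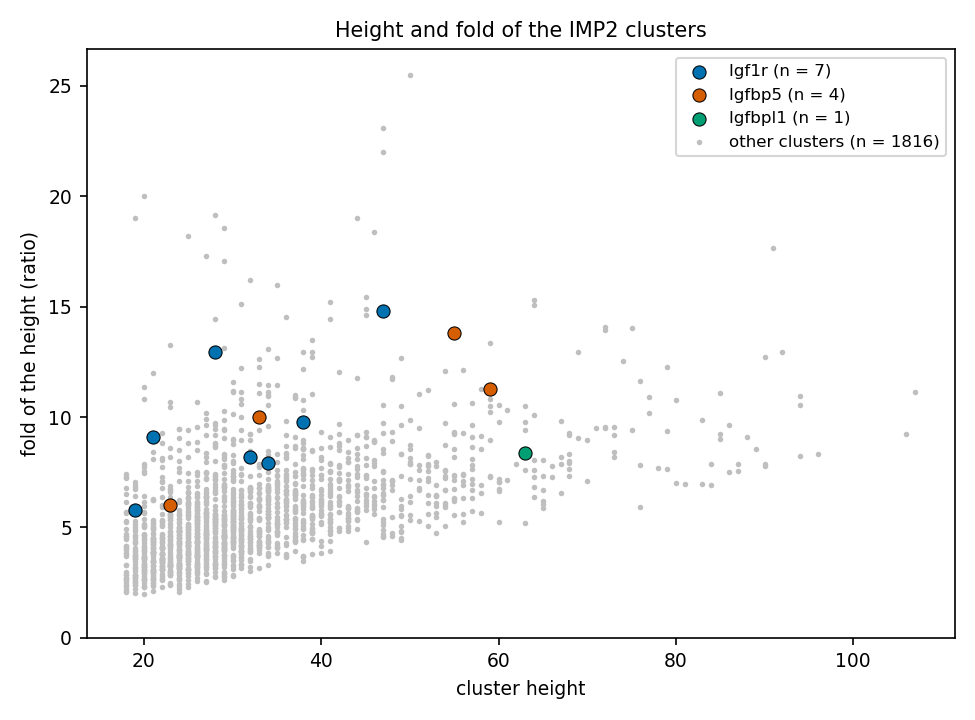
Fold of the height (a ratio, y axis) against cluster height (x axis) for every distinct cluster. Coloured points are the clusters of Igf1r (7), Igfbp5 (4) and Igfbpl1 (1) and grey points the other 1816; the Igf1r points lie along the upper side of the cloud at heights of 19 to 47, and the Igfbpl1 point (63, fold 8.39) lies in its midst.

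Genes with the most similar profile were taken by distance over 4 percentile ranks among 729 listed genes (highest cluster, number of clusters, highest fold and 3' UTR length). For Igf1r the nearest was the transcription factor gene Nfib (highest 54, 12 clusters, distance 8.52 percentile points), followed by Zfhx3 (42, 6 clusters) and Nfia (51, 10 clusters). For Igfbp5 it was St8sia2, a polysialyltransferase gene (72, 5 clusters, distance 6.22), then the desaturase gene Scd2 (90, 7 clusters) and Marchf6 (74, 5 clusters). Igfbpl1 had no neighbour as close: the first was Cdk17 with a cluster of 45, and Peg3 (43) and Mgrn1 (44) followed at 19.0 and 19.6 percentile points, each with 1 cluster lower than that of Igfbpl1.

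The ligands and the rest of the binding proteins were not in the list. None of Igf1, Igf2, Igf2r, which encodes the scavenging receptor for IGF2, Igf2bp1, Igf2bp2 and Igf2bp3 had a cluster (0 of 6), under the current symbol or any synonym. Of the 8 binding protein genes, Igfbp5 and Igfbpl1 were listed (25%) and Igfbp1, Igfbp2, Igfbp3, Igfbp4, Igfbp6 and Igfbp7 were not; 3.47% of the 21900 protein-coding genes were listed, and since the genes were taken from the list nothing is read from this. A gene that is not listed had no cluster that met the authors' thresholds in annotated mRNA. Whether its RNA was present in these brains was not measured, so lack of binding and lack of RNA cannot be told apart.

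Among the receptors, Igf1r had a listed relative in the insulin receptor gene Insr. Insr had 3 clusters, all in its 3' UTR of 4747 bases, with heights of 19, 36 and 39 and folds of 5.74, 6.11 and 7.36 in transcript order. The highest lay on chromosome 8 at 3154053 to 3154182, minus strand. The highest cluster reached 47 in Igf1r and 39 in Insr, and the highest fold 14.8 in Igf1r and 7.36 in Insr. Clusters covered 6.0% of the 3' UTR in Igf1r and 5.18% in Insr. Insrr, the insulin receptor-related receptor gene, and Igf2r were not listed.

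A few other genes of the pathway were listed. Over the roles of the IGF system counted here, 53 genes in all, 7 were listed (13.2%, beside 3.47% of protein-coding genes), and this count includes Igf1r, Igfbp5 and Igfbpl1, which were in it by choice. Without them 4 remained. The 13.2% is raised by that choice, so nothing is read from it against the 3.47%. Of 11 receptor adaptor genes 1 was listed (9.09%, 95% interval 0.23% to 41.3%, beside 3.47% of protein-coding genes). It was Grb10, which encodes an imprinted adaptor that dampens signalling by the insulin and IGF1 receptors. It had 6 clusters and a highest cluster of 63 on chromosome 11 at 11831246 to 11831361, equal in height to that of Igfbpl1. Irs1 and Irs2, which encode the principal docking proteins of the receptor, were not listed.

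Of 17 mTOR and FoxO output genes 2 were listed (11.8%, 95% interval 1.46% to 36.4%). Gsk3b, a kinase inhibited by Akt, had 8 clusters (highest 39), and Eif4ebp2, a brake on cap-dependent translation controlled by mTOR, had 1 (21). None of 6 genes for carriers and proteases of binding proteins was listed (0%, 95% interval 0% to 45.9%). With so few genes in each role, nothing is read from these shares beside the 3.47% of protein-coding genes. Of the 30 clusters of the 7 listed genes, a single one, in Gsk3b (height 21), lay in the coding sequence. Over the whole list, 68 of 761 genes had such a cluster. The highest clusters of Igf1r, Igfbp5 and Igfbpl1 (47, 59 and 63) were above those of Insr, Gsk3b and Eif4ebp2, and that of Grb10 equalled the tallest of them.

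**Figure D4:**
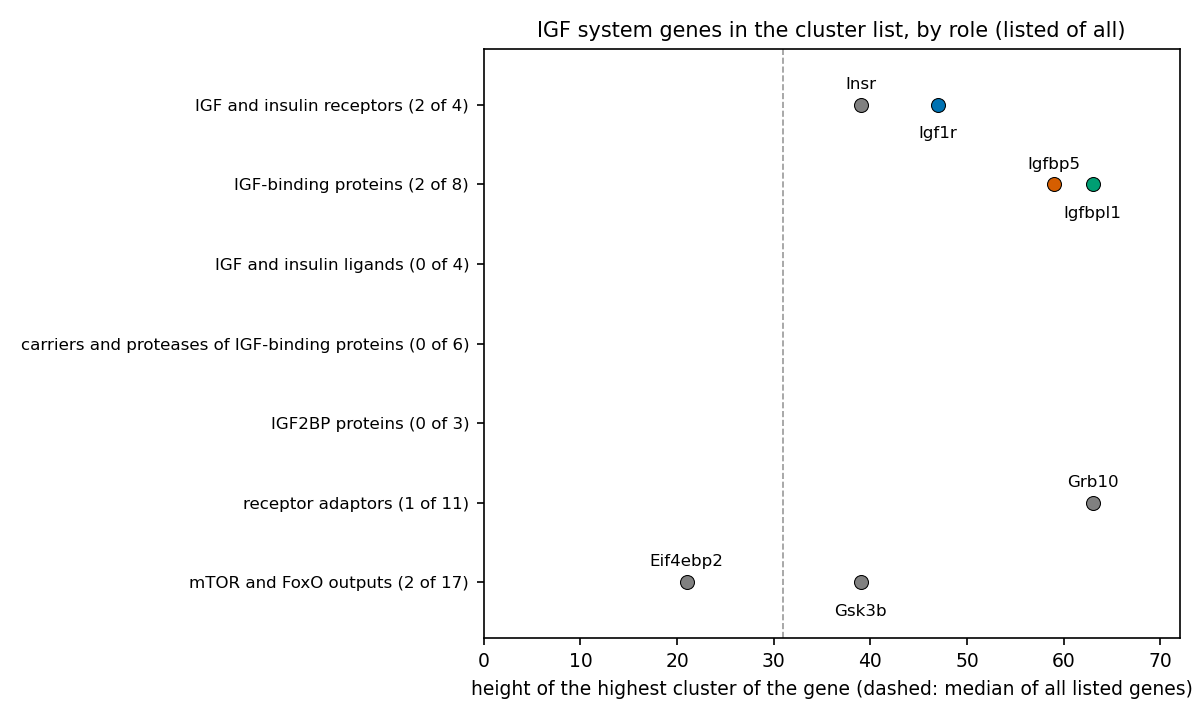
Height of the highest cluster (x axis) for the 7 listed genes of the IGF system roles counted, by role (y axis), with the number listed of the number in each role in parentheses and the median of all listed genes (31) as a dashed line. Igf1r, Igfbp5, Igfbpl1 and Grb10 lie between 47 and 63, Insr and Gsk3b at 39, and Eif4ebp2 at 21.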

How the data were processed

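HITS-CLIP clusters came from 1 deposited list for 4 libraries of IMP2 from E14 brain. Bowtie, FastQC and mm9 are named in the submitters' processing notes. The labels and the header name no cluster caller, threshold, annotation release, duplicate removal or pooling. The deposited height is read here as a signal (pileup) value of the authors, from 18 upwards, with no stated normalization. The deposited fold is read here as the authors' ratio of height to an undefined level, from 2 upwards.

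The 2865 lines (cluster by transcript) were reduced to distinct clusters by chromosome, start, end and strand, with starts made 1-based. Genes took current symbols from a GRCm38 RefSeq table, 1088 transcripts by accession and 11 by symbol or synonym; no coordinate came from it. The region was set by the cluster midpoint. The 3' UTR is the longest interval deposited for a gene, which 729 of 761 genes have. Percentages of genes or clusters above count strictly lower values among the others. Every value is a description with no test, since genes and clusters are not replicates.

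Members and gene lists were chosen with earlier results of these data known. The genes named are the members, every listed gene of the role lists and the 3 nearest genes of each member; Hsp90aa1, Tanc2, Vapa, Cnn3, Ccnd2 and Gja1 were named after their values were seen. Alternatives were joined clusters, taller clusters, other gene levels, other intervals, another region rule and at least 2 clusters per gene. The functions were tested on simulated clusters. Python 3.11.15, pandas 2.3.3, NumPy 2.4.6 and SciPy 1.17.1 were used. Cluster sequences were not used here, and some downstream kinase genes of the pathway are not reported here.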

Additional observations from a re-analysis of the deposited data

How the results depend on the processing

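All 12 clusters were in 3' UTRs by any overlap as by midpoint, and the shortest deposited 3' UTR interval could not change coverage, since each of the 3 genes has a single one. Joining clusters at most 50 bases apart left 5 in Igf1r and 3 in Igfbp5; Igfbpl1 has only 1 cluster. Counting only clusters taller than the median height left 4 in Igf1r (of 7), 3 in Igfbp5 and 1 in Igfbpl1. Ranks depended on the measure. By highest fold in place of height, the share of other listed genes that were lower was 97.4% for Igf1r, 96.4% for Igfbp5 and 75.3% for Igfbpl1. By the median height of a gene's clusters it was 66.3% for Igf1r and 99.1% for Igfbpl1, and 92.4% for Igfbp5. Of the 53 IGF system genes, 7 of them listed, 5 had at least 2 clusters and 6 had a cluster taller than the median. By these rules 342 (1.56%) and 409 (1.87%) of the 21900 protein-coding genes were listed, beside 761 by the main rule. The IGF system counts include members that were in the list by choice, so nothing is read from them. The cause of these shifts was not tested. Replicate error, tag depth and duplicates limit every value and could not be assessed. No paired analysis was possible because no column holds a single library.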

Other observations

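A set of 34 other receptor tyrosine kinase genes had 1 listed gene, a share of 2.94% beside 3.47% of protein-coding genes. The set takes in the FGF, neurotrophin, EGF, PDGF and VEGF receptors but not the Eph receptors. The listed gene was the FGF receptor gene Fgfr2, with 1 cluster of height 26 and fold 10.67 in its 3' UTR. It lay on chromosome 7 at 137306224 to 137306267 (mm9, minus strand). Among the Eph receptor genes left out of the set, Epha3 (height 20) and Epha5 (height 21), named after their values were seen, had 1 cluster each, so the count does not stand for all receptor tyrosine kinases. The abundance of these transcripts was not measured.

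Grb10 had 6 clusters in a 3' UTR of 2964 bases. Its tallest pair had heights of 60 and 63, at 3.22% and 72.9% of the way from the stop codon, and clusters covered 16.0% of the 3' UTR, more than in Igf1r, Igfbp5 or Igfbpl1. Gsk3b had 7 clusters in a 3' UTR of 5510 bases with folds from 3.17 to 5.44, while the 7 clusters of Igf1r had folds from 5.78 to 14.8.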
